A study of Homo sapiens with 10 samples.

Results

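The thioredoxin-interacting protein gene TXNIP, the alpha-arrestin genes ARRDC1, ARRDC2, ARRDC3 and ARRDC4, and the regulators MLXIP and MLX were followed through cells that overexpressed BRSK2 or BRSK1. These 7 genes, of 58676 in the count tables, were listed by name around TXNIP. The values behind the choice are not stated, and TXNIP is taken to have been chosen by its log2 fold change with BRSK1 in these libraries, which earlier results had shown. TXNIP's values in BRSK1 cells are therefore given as a description with no test, and so is its difference between the kinases. Its values with BRSK2 may have been known as well, so its test there is not independent of the choice. All 7 passed the filter on low counts that left 16936 genes for testing. RNA-seq counts covered 10 libraries of HEK293T, a line of transformed kidney cells of human embryonic origin. According to the labels, 3 libraries came from cells overexpressing BRSK2 and 3 from cells overexpressing BRSK1, related serine/threonine kinases of the AMPK family, for 24 h. The controls were 2 libraries with hcRED, a red fluorescent protein, overexpressed for 24 h, and 2 Mock libraries. Whether the replicates are separate cultures is not stated, so p-values reflect only the spread among these libraries, which could be technical.

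Alpha-arrestins are adaptor proteins that bring NEDD4-type ubiquitin ligases to membrane proteins, which are then internalised or sorted. TXNIP also binds and inhibits thioredoxin and promotes removal of the glucose transporter GLUT1 (gene SLC2A1) from the cell surface, and AMPK is known to phosphorylate TXNIP protein. Transcription of TXNIP and ARRDC4 responds to glucose through MondoA, the product of MLXIP, which enters the nucleus with its partner MLX when glucose 6-phosphate accumulates and binds carbohydrate response elements. Such an element holds a pair of E-box-like motifs set 5 bases apart.

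Total counts lay between 16516116 and 24304302 per library. BRSK2 stood at 92050 ± 18196 CPM (counts relative to the TMM-scaled library size, mean ± SD, n = 3) in BRSK2 libraries, against 84.8 ± 13.3 in the 4 controls, and BRSK1 at 60580 ± 12725 in BRSK1 libraries, against 17.3 ± 7.31. In each kinase group replicate 1 had the lowest level of the introduced gene, 72675 CPM of BRSK2 and 46139 CPM of BRSK1, against 94697 to 108780 and 65451 to 70151 in the other replicates. The neurofilament genes NEFL and NEFM, known from HEK293 lines, VIM, KRT8 and KRT18 lay between 23.9 and 186 CPM in every library. The kidney genes PAX2 and LHX1 lay between 2.43 and 6.72 CPM and PAX8 had at most 5 counts. Summed over these 8 genes, the level was 469 to 487 CPM in BRSK2, 448 to 459 in BRSK1, 378 to 392 in hcRED and 453 to 466 in Mock libraries. PTPRC, a leukocyte marker, had 0 counts in every library, and CD3E, HBB, PECAM1, CDH5, DCN and ALB had at most 6. The part of these levels in the results was not tested, nor that of the 9 markers of other cells. The 9, mostly COL1A1, summed to 26.4 to 35 CPM in BRSK2, 24.5 to 33.8 in BRSK1, 31.1 to 31.7 in hcRED and 35.4 to 39.3 in Mock libraries.

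MLX partners bind E-box-like motifs. Sequences are shown before the starts of TXNIP, ARRDC4 and MLX, the genes that stood higher with both kinases and held such a motif. They come from RefSeq (GRCh38.p14) and run 5′ to 3′ on the gene's strand up to the start of the gene in the deposited table, at chr1:145996601-145996829 (minus strand) for TXNIP, chr15:97960453-97960697 (plus strand) for ARRDC4 and chr17:42566850-42567067 (plus strand) for MLX. Capitals mark every match, on either strand, to the E-box CACGTG, to CACGNG at both ends of 5 other bases, to CCAAT, the NF-Y motif, and to GTAAACA, a forkhead motif.
TXNIP: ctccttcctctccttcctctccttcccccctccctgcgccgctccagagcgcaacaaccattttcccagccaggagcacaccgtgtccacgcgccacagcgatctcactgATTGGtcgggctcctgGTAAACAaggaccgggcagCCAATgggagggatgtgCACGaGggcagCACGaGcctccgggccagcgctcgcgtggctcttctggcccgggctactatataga
ARRDC4: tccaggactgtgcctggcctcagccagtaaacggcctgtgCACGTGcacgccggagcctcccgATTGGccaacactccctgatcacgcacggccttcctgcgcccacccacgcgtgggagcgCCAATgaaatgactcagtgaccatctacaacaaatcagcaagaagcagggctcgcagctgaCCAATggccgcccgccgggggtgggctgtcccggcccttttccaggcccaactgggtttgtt
MLX: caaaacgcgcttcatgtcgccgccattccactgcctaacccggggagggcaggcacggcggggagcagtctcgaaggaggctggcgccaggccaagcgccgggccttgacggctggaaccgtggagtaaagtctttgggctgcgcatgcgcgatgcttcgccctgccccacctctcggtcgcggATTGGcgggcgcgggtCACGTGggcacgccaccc
The RefSeq start, from which positions are counted, lies further on, with 21 bases between it and the last printed base for TXNIP, 5 for ARRDC4 and 32 for MLX. In the window of 250 bases before and 50 after each RefSeq start, TXNIP held the spaced pair CACGNG, 5 bases, CACGNG, at positions -88 to -72 from the RefSeq start. That pair was searched after the sequences had been seen, and 20 of 35116 promoters hold it (0.057%), 1 of them among the 10 promoters of the 7 genes. CACGTG was found in ARRDC4 and MLX, at positions -210 to -205 and -50 to -45 from the RefSeq start. It is held by 2 of the 10 promoters of the 7 genes and by 7.26% of all promoters. Neither CACGTG nor the spaced pair was found for ARRDC3, which also stood higher with both kinases and is not printed. Whether such matches go with a rise was not tested. CACGTG at both ends of 5 bases was found in 2 of the 35116 promoters and in none of the 10. CCAAT was found in 7 of the 10 promoters, with at least 1 for each of the 7 genes, and in 34.6% of all promoters. GTAAACA was found in TXNIP, between its CCAAT matches, and in the other listed start of ARRDC3, and 3.42% of all promoters hold it. These matches describe letters in the sequence and no binding was measured here.

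Per kilobase of gene length, the regulators had the highest means of the 7 genes over the 10 libraries. These were 13.8 RPKM (TMM-scaled) for MLX and 11.6 for MLXIP. ARRDC4 followed at 8.51 RPKM and TXNIP at 7.87, whose ranges over libraries overlapped (5.71 to 10.8 and 4.01 to 12.4), then ARRDC1 at 6.11. ARRDC2 and ARRDC3, at 2.86 and 2.84 RPKM, were the lowest, and their ranges overlapped as well. Counts ranged from 169, for ARRDC3 in a Mock library, to 3970, for MLXIP in the other Mock library. ARRDC5, a further alpha-arrestin, had 0 counts in 9 libraries and 3 counts in 1 Mock library. A count of 0 allows up to 0.191 CPM in the shallowest library, for counting error only.

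**Figure D1:**
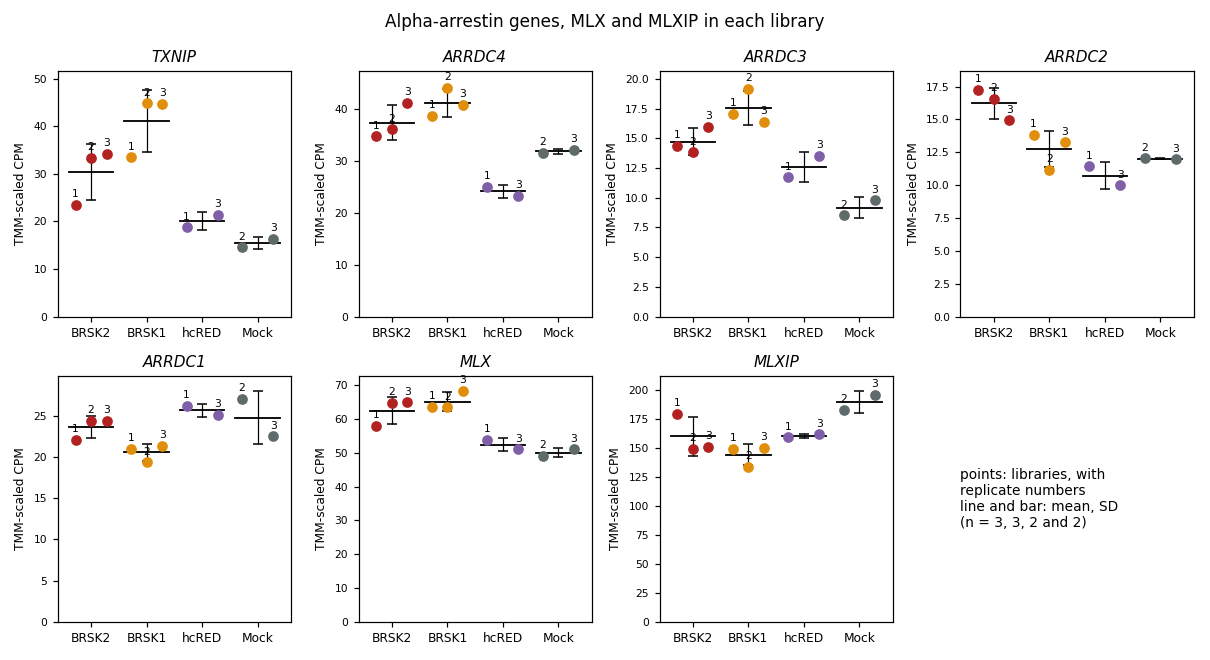
Level of each gene (TMM-scaled CPM, axis from 0) in every library, with groups on the horizontal axis and replicate numbers beside the points; lines and bars are group means and SD (n = 3 for BRSK2 and BRSK1, n = 2 for hcRED and Mock). TXNIP lies between 23.5 and 44.8 CPM in the 6 kinase libraries and between 14.5 and 21.4 CPM in the 4 controls.

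TXNIP (ENSG00000265972; hg38 chromosome 1, minus strand, 145992435 to 145996600) was higher with both kinases. It had 23.5, 33.3 and 34.2 CPM in BRSK2 replicates 1, 2 and 3 and 33.5, 44.8 and 44.7 CPM in BRSK1 replicates 1, 2 and 3. It had 18.7 and 21.4 CPM in the hcRED libraries and 14.5 and 16.4 CPM in the Mock libraries. All 6 kinase libraries lay above all 4 controls, while BRSK1 replicate 1 lay within the range of BRSK2. Replicate 1, the lowest in the introduced gene in each kinase group, was also the lowest in TXNIP in each, and the part of that level in the result was not tested. In bulk RNA, more cells with the transcript and more transcript per cell cannot be told apart.

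Against the average of both control groups, TXNIP rose 1.72-fold in BRSK2 cells (log2 fold change 0.78 ± 0.14 SE, adjusted p = 0.00309, edgeR's quasi-likelihood test with Benjamini-Hochberg adjustment over all tested genes). In BRSK1 cells the log2 fold change was 1.22 ± 0.13, or 2.33-fold, and BRSK2 minus BRSK1 was -0.44 ± 0.14. These last values are given as a description, since the choice of TXNIP is taken to have used them. The comparisons of the kinases with the controls share the control libraries, so the BRSK2 test of TXNIP is not independent of its choice. The difference between the kinases was smaller without BRSK2 replicate 1, at -0.28. BRSK2 against hcRED alone gave 0.60 ± 0.16 (adjusted p = 0.0592) and against Mock alone 0.97 ± 0.17 (adjusted p = 0.005), and TXNIP kept its BRSK2 call in 24 of 25 alternatives.

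ARRDC4 (ENSG00000140450; chromosome 15, plus strand, 97960698 to 97973838), which like TXNIP responds to glucose and is reported to lower glucose uptake, rose with both kinases. It had 34.6, 36.0 and 41.1 CPM in BRSK2 libraries and 38.6, 44.0 and 40.7 CPM in BRSK1 libraries. The controls had 24.9 and 23.2 CPM with hcRED and 31.5 and 32.1 CPM in Mock. Every kinase library lay above every control, and the hcRED libraries lay below the Mock libraries. The log2 fold change was 0.43 ± 0.08 in BRSK2 cells (adjusted p = 0.00173) and 0.57 ± 0.08 in BRSK1 cells (adjusted p = 0.000224). The BRSK1 call held under each of the 25 alternatives run (adjusted p up to 0.0214), and with BRSK2, ARRDC4 did not pass when Mock was the sole control (0.23 ± 0.10, adjusted p = 0.166). BRSK2 minus BRSK1 was -0.14 ± 0.08 (95% interval -0.32 to 0.03, adjusted p = 0.497).

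ARRDC3 (ENSG00000113369; chromosome 5, minus strand, 91368724 to 91383359), an adaptor for the beta2-adrenergic receptor and integrin beta4, also rose with both. It had 14.4, 13.8 and 15.95 CPM in BRSK2 libraries and 17.1, 19.1 and 16.4 CPM in BRSK1 libraries. The controls had 11.7 and 13.5 CPM with hcRED and 8.52 and 9.79 CPM in Mock. The BRSK1 libraries lay above all others, and the lowest BRSK2 library, at 13.8 CPM, stood just above the higher hcRED library. The log2 fold change was 0.45 ± 0.11 in BRSK2 cells (adjusted p = 0.0131) and 0.71 ± 0.11 in BRSK1 cells (adjusted p = 0.000472). Against hcRED alone neither passed (adjusted p = 0.4 with BRSK2, at 0.22 ± 0.13, and 0.0739 with BRSK1, at 0.48 ± 0.13). The BRSK2 call was also lost without BRSK2 replicate 3 (0.39, adjusted p = 0.106) or hcRED replicate 1 (0.40, adjusted p = 0.0673). BRSK2 minus BRSK1 was -0.26 ± 0.11 (95% interval -0.49 to -0.02, adjusted p = 0.351).

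ARRDC2 (ENSG00000105643; chromosome 19, plus strand, 18001132 to 18014102), a less studied member of the family, rose with BRSK2. It had 17.2, 16.6 and 14.9 CPM in BRSK2 libraries and 13.8, 11.2 and 13.3 CPM in BRSK1 libraries. The controls had 11.4 and 9.98 CPM with hcRED and 12.1 and 12.0 CPM in Mock. The BRSK2 libraries lay above all others, and the BRSK1 libraries overlapped the controls. The log2 fold change was 0.52 ± 0.11 in BRSK2 cells (adjusted p = 0.00485), lost against Mock alone (0.44 ± 0.13, adjusted p = 0.053), and 0.17 ± 0.11 in BRSK1 cells (adjusted p = 0.39). The difference between the kinases itself, 0.35 ± 0.12 (95% interval 0.11 to 0.59), did not pass over all genes (adjusted p = 0.191).

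ARRDC1 (ENSG00000197070; chromosome 9, plus strand, 137605654 to 137615360), which drives the budding of small vesicles (ARMMs) from the plasma membrane with TSG101, was the only one of the 5 tested alpha-arrestin genes called higher with neither kinase. It had 22.05, 24.4 and 24.4 CPM in BRSK2 libraries and 21.0, 19.3 and 21.3 CPM in BRSK1 libraries. The controls had 26.2 and 25.1 CPM with hcRED and 27.0 and 22.5 CPM in Mock. The BRSK2 libraries overlapped the controls, and the BRSK1 libraries lay below all of them. The log2 fold change was -0.09 ± 0.09 in BRSK2 cells (adjusted p = 0.58) and -0.29 ± 0.09 in BRSK1 cells (adjusted p = 0.0474). The BRSK1 call lay at the threshold and was lost in 13 of 25 alternatives, among them those without BRSK1 replicate 1 (adjusted p = 0.0825), 2 (0.183) or 3 (0.129), BRSK2 replicate 2 (0.0587) or 3 (0.0567), hcRED replicate 1 (0.146) or 3 (0.0822), or Mock replicate 2 (0.169), and against either control alone (0.144 and 0.126). ARRDC1 shares its last 29 bases with the antisense gene ARRDC1-AS1, and the strand setting of the counting is not given, so reads from that stretch cannot be told apart. ARRDC1-AS1 had 26.6 to 31.4 CPM in BRSK2, 24.7 to 30.4 in BRSK1, 31.7 to 32.2 in hcRED and 29.2 to 30.7 in Mock libraries.

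The calls for the regulators went in opposite directions, MLX higher with both kinases and MLXIP lower with BRSK1. MLX (ENSG00000108788; chromosome 17, plus strand, 42567068 to 42573239), the shared dimer partner of MondoA and ChREBP, had 58.0, 64.8 and 64.9 CPM in BRSK2 libraries and 63.7, 63.55 and 68.3 CPM in BRSK1 libraries. The controls had 53.8 and 51.1 CPM with hcRED and 49.2 and 51.0 CPM in Mock, all below the 6 kinase libraries. MLX rose by a log2 fold change of 0.29 ± 0.07 in BRSK2 cells (adjusted p = 0.00933) and 0.35 ± 0.07 in BRSK1 cells (adjusted p = 0.00387). Against hcRED alone it did not pass (adjusted p = 0.0793 with BRSK2, at 0.25 ± 0.08, and 0.0565 with BRSK1, at 0.31 ± 0.08). The BRSK2 call was also lost without BRSK2 replicate 2 (0.26, adjusted p = 0.0564) or 3 (0.26, adjusted p = 0.0841), and under library totals alone (0.18, adjusted p = 0.0617), a scaling that moved the median of all genes by -0.10 with BRSK2.

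MLXIP (ENSG00000175727; chromosome 12, plus strand, 122078722 to 122147347), which encodes MondoA, fell with BRSK1. It had 180, 150 and 151 CPM in BRSK2 libraries and 149, 134 and 150 CPM in BRSK1 libraries. The controls had 159.5 and 162 CPM with hcRED and 183 and 196 CPM in Mock. The BRSK1 libraries lay below all controls, and BRSK2 replicate 1 stood between the hcRED and the Mock values while replicates 2 and 3 stood below hcRED. Its log2 fold change was -0.13 ± 0.07 in BRSK2 cells (adjusted p = 0.262) and -0.27 ± 0.07 in BRSK1 cells (adjusted p = 0.0158). The BRSK1 call was lost against hcRED alone (-0.15 ± 0.08, adjusted p = 0.376) and without BRSK1 replicate 2 (-0.22, adjusted p = 0.0982) or 3 (-0.30, adjusted p = 0.054), hcRED replicate 1 (-0.28, adjusted p = 0.0546) or Mock replicate 3 (-0.25, adjusted p = 0.0541). MLXIP passed with BRSK2 without BRSK2 replicate 1 (-0.22, adjusted p = 0.0185) and under library totals alone (-0.23, adjusted p = 0.0228). MLXIPL, the paralog that encodes ChREBP, stood at 8.32 to 11.8 CPM in BRSK2, 9.69 to 11.7 in BRSK1, 10.3 to 10.8 in hcRED and 11.3 to 11.9 in Mock libraries, and passed with neither kinase (-0.06 ± 0.13 with BRSK2 and -0.07 ± 0.13 with BRSK1).

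**Figure D2:**
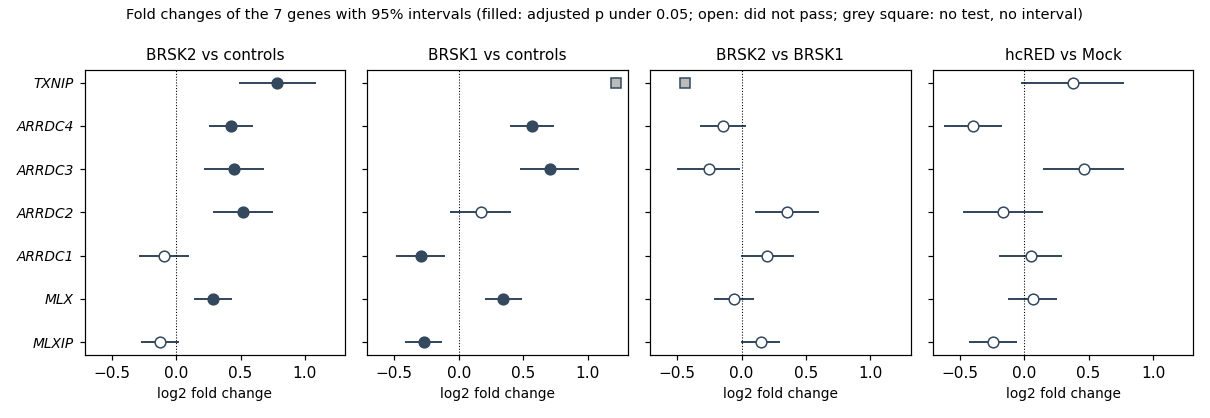
Log2 fold change (horizontal axis) of the 7 genes in each of the 4 comparisons, with 95% intervals for tested values; filled circles passed at an adjusted p under 0.05, open circles did not, and grey squares are TXNIP values given with no test. With BRSK2, 5 of 7 genes were called (7.82% of all tested genes), among them TXNIP, whose test is not independent of its choice. Between BRSK2 and BRSK1, 0 of the 6 other than TXNIP were called (0.348% of all tested genes), and between hcRED and Mock 0 of 7 (0.0295%).

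With BRSK2, 5 of the 7 genes were called higher and 0 lower. Of all tested genes, 4.77% were called higher and 3.05% lower (7.82% in either direction). The 5 include TXNIP, whose test is not independent of its choice. The 7 genes were chosen with earlier results of these data known, so these shares give no test of the set. The same 5 had all BRSK2 libraries above all controls, as did 9.09% of all tested genes, and 0 had them all below, as did 8.20%. With BRSK1, of the 6 genes other than TXNIP, 3 were called higher and 2 lower, where 3.77% and 2.66% of all tested genes were (6.43% in either direction). Of the same 6, 3 had all BRSK1 libraries above all controls (9.93% of all tested genes) and 2 had them all below (8.43%). With BRSK2 the median log2 fold change was 0.45 over the 5 alpha-arrestin genes, TXNIP among them. With BRSK1 it was 0.37 over the 4 other than TXNIP. Over all tested genes it was 0.00 in both comparisons. In the authors' deposited table for BRSK2, TXNIP (0.77), ARRDC2 (0.53), ARRDC4 (0.43) and MLX (0.29) are listed with these log2 fold changes, and ARRDC3 is not. In the authors' deposited table for BRSK1, TXNIP (1.22), ARRDC3 (0.71), ARRDC4 (0.58), MLX (0.35) and MLXIP (-0.27) are listed, and ARRDC1 is not. The authors list 723 genes for BRSK2 and 879 for BRSK1, with limma adjusted p up to 0.0498 and 0.0496. Only genes under 0.05 are thus listed, and absence does not mean that a gene was not measured.

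Between the kinases, 0 of the 6 genes other than TXNIP passed edgeR's test, where 0.348% of all tested genes did. ARRDC1, ARRDC2, ARRDC3 and MLXIP, 4 of the 6, had an unadjusted p under 0.05, as did 12.4% of all tested genes, and DESeq2 and limma-voom called 0. All BRSK2 libraries lay above all BRSK1 libraries for ARRDC1 and ARRDC2 (8.65% of all tested genes) and below them for ARRDC3 (9.02%). The intervals for ARRDC1 (0.00 to 0.40) and MLXIP (0.00 to 0.29) had lower ends near 0, and that for MLX (-0.21 to 0.09) spanned it.

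Between hcRED and Mock, 0 of the 7 passed edgeR's test, where 0.0295% of all tested genes did, and DESeq2 and limma-voom called 0. Over all tested genes 0.00590% were called higher and 0.0236% lower. The hcRED libraries lay above both Mock libraries for TXNIP, ARRDC3 and MLX (20% of all tested genes) and below them for ARRDC4, ARRDC2 and MLXIP (20.3%). An unadjusted p under 0.05 was reached by 3 of the 7, ARRDC4 (-0.40 ± 0.11), ARRDC3 (0.46 ± 0.15) and MLXIP (-0.24 ± 0.09), and by 8.96% of all tested genes. TXNIP stood at 0.38 ± 0.18 (95% interval -0.02 to 0.77). With both kinases, the log2 fold changes of TXNIP and ARRDC3 were larger against Mock alone, and those of ARRDC4 were larger against hcRED alone.

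**Figure D3:**
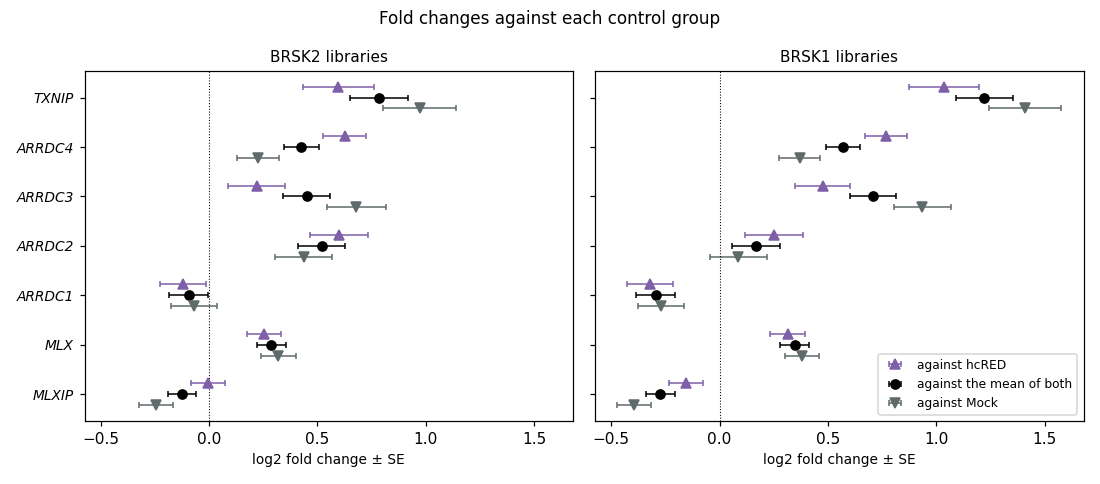
Log2 fold change ± SE of each gene in BRSK2 libraries (left) and BRSK1 libraries (right) against hcRED alone, the mean of both controls and Mock alone. ARRDC4 moves between 0.63 against hcRED and 0.23 against Mock with BRSK2, while ARRDC3 moves the other way, between 0.22 and 0.68.

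Over the 10 libraries, the log2 CPM of TXNIP correlated best with PAN2, a subunit of a poly(A) deadenylase (Pearson r = 0.98), the transcription factor ZEB1 (0.98), SMAD9 (0.97), the chaperonin subunit CCT8 (0.97) and the transcription factor ZIC5 (0.97), of 11076 other genes at 5 CPM or more. These libraries share groups of 2 and 3, so the values describe the pattern and carry no p. Among the other members, MLX ranked 22 (r = 0.95), ARRDC3 59 (r = 0.92), ARRDC4 839 (r = 0.75) and ARRDC2 3576 (r = 0.29), while ARRDC1 (r = -0.68) and MLXIP (r = -0.86) ran the other way. ARRDC4 correlated best with OCRL, an inositol phosphatase (0.96), TTC12 (0.95), AGTPBP1 (0.95), HSD17B6 (0.94) and ALDH7A1 (0.94). Of the 5 genes nearest to TXNIP, 2 were kept without BRSK1 replicate 2, either hcRED library or Mock replicate 2, and by Spearman correlation, and 3 without BRSK2 replicate 1 or 2 or Mock replicate 3. PAN2 averaged 49.6 CPM in BRSK2, 56.3 in BRSK1, 37.2 in hcRED and 31.2 in Mock libraries. This is the order of groups seen for TXNIP, which the choice of PAN2 by correlation favours.

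Over all tested genes, 4.77% were called higher and 3.05% lower with BRSK2, and 3.77% and 2.66% with BRSK1. An unadjusted p under 0.05 was reached by 23% with BRSK2 and 21.8% with BRSK1. The calls and unadjusted counts of the following lists stand beside these shares. Of 19 other reported targets of MondoA and ChREBP, 14 were tested, and 2 rose with BRSK2 where 1 rose and 2 fell with BRSK1. With BRSK2 these were KLF10, a transcriptional repressor also induced by TGF-beta (0.80 ± 0.11, adjusted p = 0.000462), and RGS16, a regulator of G protein signalling (0.60 ± 0.11, adjusted p = 0.00164), which was lost against Mock alone (0.38, adjusted p = 0.0948). With BRSK1, KLF10 rose (0.67 ± 0.11, adjusted p = 0.0032), and HK2, the hexokinase that phosphorylates glucose (-0.40 ± 0.10, adjusted p = 0.0322), and FASN, fatty acid synthase (-0.24 ± 0.07, adjusted p = 0.0451), fell. The list median was -0.02 with BRSK2 and -0.08 with BRSK1, and 4 of the 14 had an unadjusted p under 0.05 with each. Between the 2 control groups, hcRED and Mock, the list median was -0.23. There 9 of the 14 had an unadjusted p under 0.05, as did 8.96% of all tested genes, and edgeR called 0. HK2 stood at -0.52 ± 0.13, FASN at -0.31 ± 0.09, RGS16 at -0.44 ± 0.15 and KLF10 at 0.05 ± 0.16 in hcRED against Mock. HK2 and FASN did not pass against hcRED alone (-0.14 and -0.09, adjusted p = 0.658 and 0.697) or with the 4 controls as 1 group (0.254 and 0.119). HK2 did not pass when BRSK2 replicate 2 (adjusted p = 0.0572) was left out, nor without BRSK1 replicate 2 (0.114) or 3 (0.136), hcRED replicate 1 (0.0702) or Mock replicate 2 (0.0887) or 3 (0.0917). FASN did not pass without robust estimation (0.054), nor without BRSK2 replicate 2 (0.0519) or 3 (0.0566), BRSK1 replicate 2 (0.229) or 3 (0.137), hcRED replicate 1 (0.162) or 3 (0.0715) or Mock replicate 3 (0.128). Between BRSK2 and BRSK1, FASN was called (0.35 ± 0.08, adjusted p = 0.0438), a call lost when any 1 of the 6 kinase libraries or of the 2 hcRED libraries was left out (adjusted p from 0.064 to 0.191), under library totals alone (0.0822), without robust estimation (0.0713) and with only the groups compared (0.0883). Among the targets not tested, G6PC1 had 0 counts in all libraries, and PKLR, FGF21 and GCKR had at most 12 in any.

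In the MLX and MAX network of dimerising transcription factors, 10 of 11 genes were tested. Medians were 0.07 with BRSK2 and 0.01 with BRSK1. An unadjusted p under 0.05 was reached by 4 of the 10 with BRSK2 and 2 with BRSK1. MXD3, a repressor that pairs with MAX, rose by 0.61 ± 0.10 with BRSK2 and by 0.68 ± 0.10 with BRSK1 (adjusted p = 0.000745 and 0.00045), and it was the only one of the 10 called with BRSK1. MYC (0.46 ± 0.08, adjusted p = 0.00157) and MNT, another MAX-binding repressor (0.35 ± 0.09, adjusted p = 0.0171), also rose with BRSK2. MYC did not pass against Mock alone (0.21, adjusted p = 0.222) or with the 4 controls as 1 group (adjusted p = 0.154). In hcRED against Mock, MYC stood at -0.51 ± 0.11 (adjusted p = 0.134 by edgeR), MNT at 0.02 ± 0.12 and MXD3 at 0.02 ± 0.14. MNT did not pass against hcRED or Mock alone (adjusted p = 0.0765 and 0.0511), under library totals alone (0.0512), or without BRSK2 replicate 2 (0.0929) or 3 (0.139), hcRED replicate 3 (0.0711) or Mock replicate 3 (0.0549).

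Of 10 tested partners of TXNIP, 1 rose and 2 fell with BRSK1, and the median was -0.07 with BRSK2 and -0.03 with BRSK1. With BRSK1, 4 of the 10 had an unadjusted p under 0.05. SLC2A1, the glucose transporter GLUT1, fell (-0.41 ± 0.08, adjusted p = 0.00261), as did DDIT4, an mTORC1 inhibitor that binds TXNIP (-0.56 ± 0.11, adjusted p = 0.00898), while PRKAA1, a catalytic subunit of AMPK, rose (0.25 ± 0.07, adjusted p = 0.0347). SLC2A1 kept its call in all alternatives but hcRED alone (-0.36, adjusted p = 0.0534). DDIT4 lost its call against hcRED alone (-0.35, adjusted p = 0.22), with only the groups compared (0.0595), with the controls as 1 group (0.0888) and without BRSK1 replicate 2 (0.0541) or 3 (0.0514). PRKAA1 lost it against hcRED alone (0.448), with the controls as 1 group (0.0662), under library totals alone (0.068) and without BRSK1 replicate 2 (0.11) or 3 (0.166), hcRED replicate 1 (0.159) or Mock replicate 3 (0.101). In hcRED against Mock, SLC2A1 stood at -0.12 ± 0.10, DDIT4 at -0.43 ± 0.14 and PRKAA1 at 0.21 ± 0.095, with no call. With BRSK2, 0 of 10 partners passed edgeR's test, 4 had an unadjusted p under 0.05, and DESeq2 called 2 and limma-voom 0. Thioredoxin itself, TXN, averaged 199 ± 24.6 CPM in BRSK2, 227 ± 16.1 in BRSK1, 233 ± 8.16 in hcRED and 222 ± 20.8 in Mock libraries, with no call. Thioredoxin reductase TXNRD1 had no call either (-0.16 ± 0.06 with BRSK2 and -0.07 ± 0.05 with BRSK1, adjusted p = 0.0715 and 0.511).

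Of 9 tested genes of glucose entry and phosphorylation, the SLC2A1 and HK2 calls already given were the 2 that fell with BRSK1 (list median -0.16). With BRSK1, 4 of the 9 had an unadjusted p under 0.05. With BRSK2 edgeR called 0 of 9 (list median -0.11), 3 had an unadjusted p under 0.05, and DESeq2 called 1 and limma-voom 0. In hcRED against Mock, with neither kinase introduced, the list median was also -0.16, 3 of the 9 had an unadjusted p under 0.05 and edgeR called 0. SLC2A2, the transporter GLUT2, had 0 counts in all libraries. The NEDD4-type ubiquitin ligases, which bind the PPxY motifs of alpha-arrestins, had 0 of 9 called with either kinase by edgeR, DESeq2 or limma-voom, and 1 with an unadjusted p under 0.05 with each (list medians 0.02 with BRSK2 and 0.03 with BRSK1). NEDD4 stood at 0.26 ± 0.11 with BRSK2 and 0.31 ± 0.10 with BRSK1 (adjusted p = 0.136 and 0.0792). Of 10 cargoes of the ARRDC proteins and genes of ARMM budding, the insulin receptor gene INSR rose with BRSK2 (0.33 ± 0.08, adjusted p = 0.0134) and 0 passed with BRSK1 by edgeR. An unadjusted p under 0.05 was reached by 5 of the 10 with BRSK2 and 4 with BRSK1. DESeq2 called 1 with each kinase, and limma-voom called 1 with BRSK2 and 0 with BRSK1. List medians were 0.07 in both. INSR did not pass when BRSK2 replicate 3 was left out (0.25, adjusted p = 0.144), nor without hcRED replicate 1 (0.06) or Mock replicate 2 (0.0609), against Mock alone (0.092) and under library totals alone (0.0524). Of 6 tested genes with a related fold, the beta-arrestins ARRB1 and ARRB2 among them, 0 passed with either kinase by edgeR, DESeq2 or limma-voom, with 4 at an unadjusted p under 0.05 for BRSK2 and 1 for BRSK1 (list medians -0.06 and 0.03). ARRB1 stood at -0.23 ± 0.10 with BRSK2 and -0.16 ± 0.10 with BRSK1, and ARRB2 at 0.14 ± 0.06 and -0.06 ± 0.06.

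**Figure D4:**
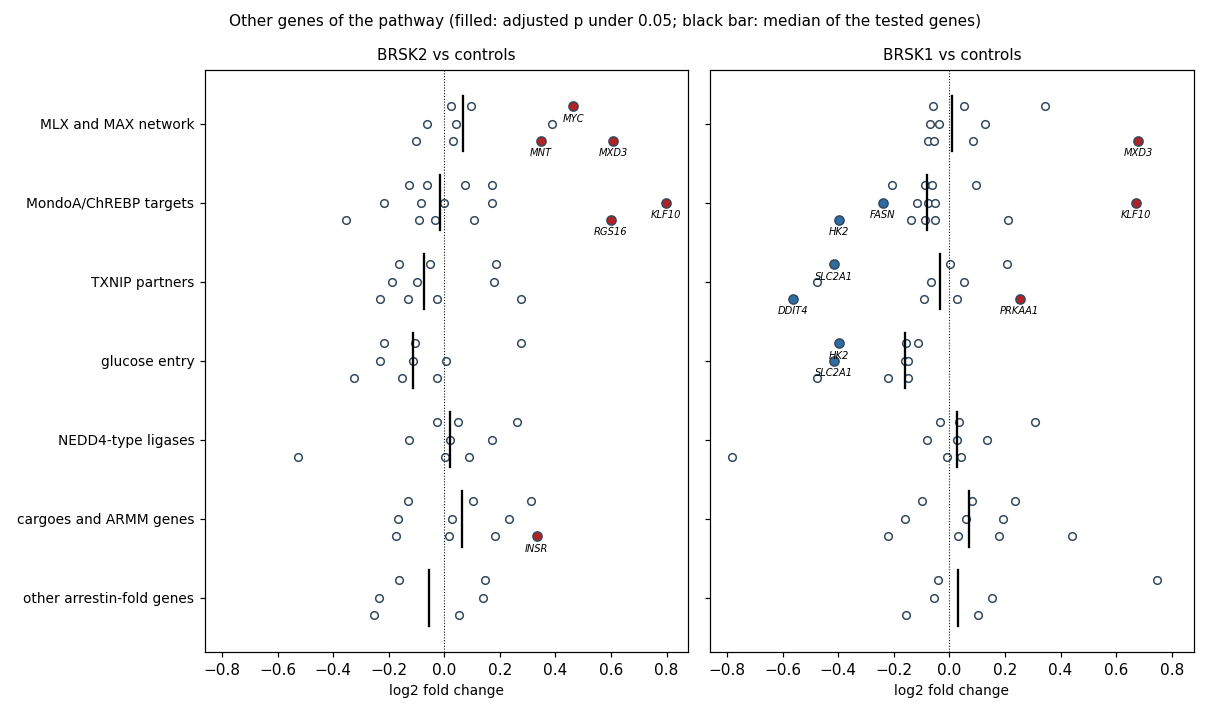
Log2 fold change (horizontal axis) of the tested genes of each list with BRSK2 (left) and BRSK1 (right) against the controls; filled points, red for higher and blue for lower, passed at an adjusted p under 0.05 and are named, and the black bar is the list's median. KLF10 and MXD3 are filled on both sides, and SLC2A1, HK2, FASN and DDIT4 on the BRSK1 side.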

How the data were processed

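RNA from 10 HEK293T samples was sequenced, with 3 µg of RNA per sample sent to the sequencing provider, per the labels' protocols. The submitters' processing notes name STAR, limma, edgeR and hg38, with no versions. How reads were counted, with which strand setting and which annotation, is not given in the sources used here. Raw gene counts were deposited by the authors as one file per kinase, whose shared control columns were identical (0 counts differed), and both were merged by gene ID (0 unused count columns). The authors' deposited log2 CPM values served only as a check. Their tables of limma results hold log2 fold changes, p-values and scores, per the file headers. Only fold changes, the number of genes listed and the highest adjusted p were taken from them.

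Groups came from the genotype label and replicate numbers from the titles. edgeR 4.0.16 (R 4.3.3) was run with TMM factors, filterByExpr (minimum count 10, minimum total 15) and a robust quasi-likelihood fit of 4 group means over all 10 libraries. The control value averaged both control groups, and Benjamini-Hochberg adjustment ran over 16936 genes with a threshold of 0.05. SE was obtained as |log2 fold change| over √F, and RPKM is TMM-scaled CPM per kilobase of the deposited gene length. Likeness used log2 CPM with a prior count of 2. DESeq2 1.42.0 and limma-voom (limma 3.58.1) were alternatives, with other scalings, filters, controls, left-out libraries and the replicate block. Steps were tested on simulated data, and figures drawn with matplotlib 3.10.9. Text named the 7 genes, up to 4 called genes per list and the 5 genes most like TXNIP and ARRDC4; ARRDC1-AS1, PAX8, NEDD4, ARRB1 and ARRB2 were named after seeing their values. The members and lists were chosen with earlier results of these data known.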

Additional observations from a re-analysis of the deposited data

How the results depend on the processing

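The direction of every member with a call against the controls was the same in all 25 alternatives run. Of the other members, ARRDC1 between hcRED and Mock reversed without Mock replicate 3, with left-out values from -0.073 (adjusted p = 0.954) to 0.19. Members called with BRSK2, 5 in all, numbered 2 against hcRED alone and 3 against Mock alone. They numbered 3 (without BRSK2 replicate 3) to 6 (without BRSK2 replicate 1) when 1 library was left out. Calls over all tested genes in these settings are given below. Of the 6 read with BRSK1, 5 were called, 1 against hcRED alone, 3 at an adjusted p under 0.01, and 3 (without BRSK1 replicate 2 or 3 or hcRED replicate 1) to 5 with 1 library left out. Counts per library were 16516116 to 24304302, and with groups of 2 the hcRED and Mock comparison had the least precision.

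Genes called over the whole table moved more. With BRSK2 (1325) they numbered 3001 under library totals alone, 479 at an adjusted p under 0.01, 606 against hcRED alone and 931 against Mock alone. With 1 library left out they numbered 346 (without BRSK2 replicate 3) to 2211 (without BRSK2 replicate 1). With BRSK1 (1089) they numbered 256 at an adjusted p under 0.01, 133 against hcRED alone and 204 (without BRSK1 replicate 3) to 1751 (without BRSK2 replicate 1) with 1 library left out. Under library totals the split of calls with BRSK2 was 494 higher and 2507 lower, against 808 and 517, that with BRSK1 463 and 733, against 638 and 451, that between the kinases 24 and 182, against 39 and 20, and that between hcRED and Mock 4 and 3, against 1 and 4. Between BRSK2 and BRSK1 (59) they numbered 206 under library totals, 188 with no filter, 190 by DESeq2, 14 without robust estimation, 20 with only the groups compared, 6 at an adjusted p under 0.01, and 7 to 64 with 1 library left out. Between hcRED and Mock (5) they numbered 128 with no filter, 3 with the filter of 1 CPM in 3 libraries, 52 by DESeq2, 2 by limma-voom, 0 without robust estimation, with only the groups compared or at an adjusted p under 0.01, and 0 to 49 with 1 library left out; 1517 genes had an unadjusted p under 0.05 there. The cause of these shifts was not tested.

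With the replicate number as a block, 2153 genes were called with BRSK2, 1999 with BRSK1, 267 between the kinases and 433 between hcRED and Mock, where TXNIP (0.56, adjusted p = 0.0103) and MLXIP (-0.33, adjusted p = 0.0162) passed, 2 members in place of 0. The block changed no other member's call. Deviations from the group means correlated over 0.1 in 2 of 12 same-numbered pairs, and nothing in the labels says that a number marks a shared batch, so the block was kept as an alternative. Of the 10 libraries, 6 correlated best with a library of their own number. These 6 form mutual pairs, each counted from both sides, and deviations in groups of 2 mirror each other. The count to be met with no pairing was not worked out, so this count does not decide whether numbers mark pairs. Of the 5 genes most like TXNIP, 2 were kept by Spearman correlation and 2 to 5 with 1 library left out. CACGTG was found in promoters of 2 of the 7 genes, CACGTG at both ends of 5 bases in 0, and the added pair CACGNG in 1.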
